A study of Mus musculus with 2 samples.

Results

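The 32 genes described here encode the enzymes and regulators with which a cell makes cholesterol and fatty acids. They were listed by name from the pathway, with earlier results of these data known, and were read from gene tables of 55536 genes. They comprise 17 enzymes of sterol synthesis, 9 enzymes of fatty acid synthesis and desaturation, 5 regulators and 1 sterol carrier. Several other enzymes and targets of the pathway were not analysed here. RNA with poly(A) tails came from whole-cell extracts of C57BL/6J bone marrow-derived macrophages, cells matured in culture from precursors in the marrow. Stimulation was at 100 ng/mL and lasted 300 min, and the labels name the agent both as Lipid A and as lipoprotein A, so it is called the stimulus. There is 1 group of 2 libraries, called biological replicates 1 and 2 in the labels, with separate biosample records and a shared donor record. The labels give no age or genetic change, and no unstimulated cells were analysed, so no value below states a response to the stimulus. Genes of the table held 38028180 expected counts in replicate 1 and 63649065 in replicate 2. Bulk RNA cannot tell fewer cells of a type from less RNA per cell.

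Sterol synthesis begins when acetyl-CoA units are joined to HMG-CoA and carried through mevalonate to farnesyl diphosphate, the mevalonate arm. Squalene synthase then commits the carbon to sterols, and a chain of oxidations, reductions and isomerisations in the endoplasmic reticulum, the sterol arm, ends in cholesterol. Fatty acid synthesis draws on the same acetyl-CoA, and both branches are controlled by the SREBP transcription factors, encoded by Srebf1 and Srebf2. SCAP escorts these precursors to the Golgi for cleavage when membrane sterol is low, and INSIG proteins hold them back when it is high. In macrophages this control sits beside the liver X receptors, which drive sterol efflux.

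The promoters of these genes are the place where SREBPs and their partners, among them NF-Y, bind, so the windows of 6 genes are shown. Windows run from 250 bases before to 50 bases after a RefSeq gene start on GRCm38.p6, and 25 of the 32 genes had an entry. Fads2 (chr19:10101454-10101753, minus strand), Mvd (chr8:122443373-122443672, minus strand) and Cyp51 (chr5:4104648-4104947, minus strand) are shown because, among genes with 1 window, they differed most between the libraries. Hmgcs1 (chr13:119690101-119690400, plus strand) is shown as the gene with a match to the core of the sterol regulatory element, and Ebp (chrX:8193463-8193762, minus strand) and Idi1 (chr13:8885356-8885655, plus strand) because their ratios of scaled counts differed least. Sequences are written 5′ to 3′ on the gene's strand, with capitals for matches to TCACNCCAC, to CACGTG and to CCAAT or its complement ATTGG.
Fads2: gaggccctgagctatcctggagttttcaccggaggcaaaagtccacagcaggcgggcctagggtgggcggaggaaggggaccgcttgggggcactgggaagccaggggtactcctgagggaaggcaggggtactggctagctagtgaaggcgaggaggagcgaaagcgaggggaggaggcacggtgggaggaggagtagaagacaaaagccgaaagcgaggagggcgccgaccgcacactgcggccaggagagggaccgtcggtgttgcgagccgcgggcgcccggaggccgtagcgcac
Mvd: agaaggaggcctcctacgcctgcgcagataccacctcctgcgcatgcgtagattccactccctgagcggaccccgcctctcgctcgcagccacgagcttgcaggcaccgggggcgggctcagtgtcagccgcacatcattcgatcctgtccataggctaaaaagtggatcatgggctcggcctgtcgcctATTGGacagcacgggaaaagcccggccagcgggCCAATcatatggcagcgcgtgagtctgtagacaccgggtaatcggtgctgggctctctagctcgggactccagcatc
Cyp51: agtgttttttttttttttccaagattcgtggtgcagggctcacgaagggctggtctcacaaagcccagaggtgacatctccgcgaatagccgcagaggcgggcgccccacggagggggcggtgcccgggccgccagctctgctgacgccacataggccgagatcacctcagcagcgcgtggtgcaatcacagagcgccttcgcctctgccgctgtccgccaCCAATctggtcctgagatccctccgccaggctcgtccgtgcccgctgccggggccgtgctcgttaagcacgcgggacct
Hmgcs1: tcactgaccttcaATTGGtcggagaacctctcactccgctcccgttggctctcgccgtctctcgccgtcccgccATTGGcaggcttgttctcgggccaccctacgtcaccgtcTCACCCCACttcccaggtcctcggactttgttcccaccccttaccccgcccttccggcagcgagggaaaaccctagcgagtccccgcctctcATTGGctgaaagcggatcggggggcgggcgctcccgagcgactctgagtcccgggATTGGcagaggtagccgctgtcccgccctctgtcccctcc
Ebp: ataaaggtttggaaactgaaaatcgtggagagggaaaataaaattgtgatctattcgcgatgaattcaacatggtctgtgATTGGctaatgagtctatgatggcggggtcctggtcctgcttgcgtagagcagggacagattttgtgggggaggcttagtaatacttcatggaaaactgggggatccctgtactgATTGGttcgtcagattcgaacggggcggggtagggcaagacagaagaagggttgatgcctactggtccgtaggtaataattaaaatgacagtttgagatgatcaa
Idi1: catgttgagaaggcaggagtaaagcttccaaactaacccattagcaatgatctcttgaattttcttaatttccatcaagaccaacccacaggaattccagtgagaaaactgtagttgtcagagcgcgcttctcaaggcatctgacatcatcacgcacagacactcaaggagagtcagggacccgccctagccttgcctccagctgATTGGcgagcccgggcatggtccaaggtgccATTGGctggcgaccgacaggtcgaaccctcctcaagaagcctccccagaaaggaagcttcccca
The NF-Y box CCAAT, searched on both strands, was in a window of 21 of the 25 genes (84.0%), against 41.1% of 27025 genes in the same RefSeq table. All 14 sterol enzymes with an entry held it, as did 3 of 6 fatty acid genes and 4 of 5 regulators. Hmgcs1 held 4 matches, Mvd, Ebp and Idi1 held 2 each, Cyp51 held 1 and Fads2 held 0. The core of the sterol regulatory element, TCACNCCAC, was in the Hmgcs1 window alone (1 of 25, against 1.44% of all genes). The full pattern searched, which is that core with an A before it, was in 0 of 25 (0.27% of all genes). Only exact matches were counted, so an element that departs from the pattern would be missed. These counts do not show that a promoter lacks the element. The E-box CACGTG, which is bound by helix-loop-helix factors, was in 5 of 25 (20.0%, against 8.09%), and the GC box GGGCGG in 21 of 25 (84.0%, against 38.2%). Fads2, Mvd and Cyp51 and Ebp and Idi1 each held 1 GC box. The shares over all genes were not limited to genes expressed in these libraries, and shares among expressed genes were not computed. These matches describe letters in the window and not bound sites.

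At 300 min the macrophages carried transcripts of nearly the whole pathway, at levels from 1.54 to 61.4 TPM. TPM is a share of all transcripts that is corrected for transcript length, so different genes can be set side by side. Of the 32 genes, 31 reached 1 TPM in both libraries, against 42.4% of all nuclear protein-coding genes. The exception was Scd1, with 0.92 TPM in replicate 1. At 10 TPM in both libraries the number was 14, against 23.5%. The median over the 32 genes was 7.86 and 15.7 TPM in replicates 1 and 2, where protein-coding genes at 1 TPM in both libraries had medians of 15.1 and 14.4 TPM. The highest means belonged to Msmo1, Hmgcs1, Sc5d, Acly and Insig1, and the lowest to Elovl6, Stard4 and Hsd17b7. In the order of the means, 30 of 31 neighbouring pairs had overlapping ranges over the 2 libraries, Pmvk above Acaca being the exception, so single ranks are not resolved.

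**Figure D1:**
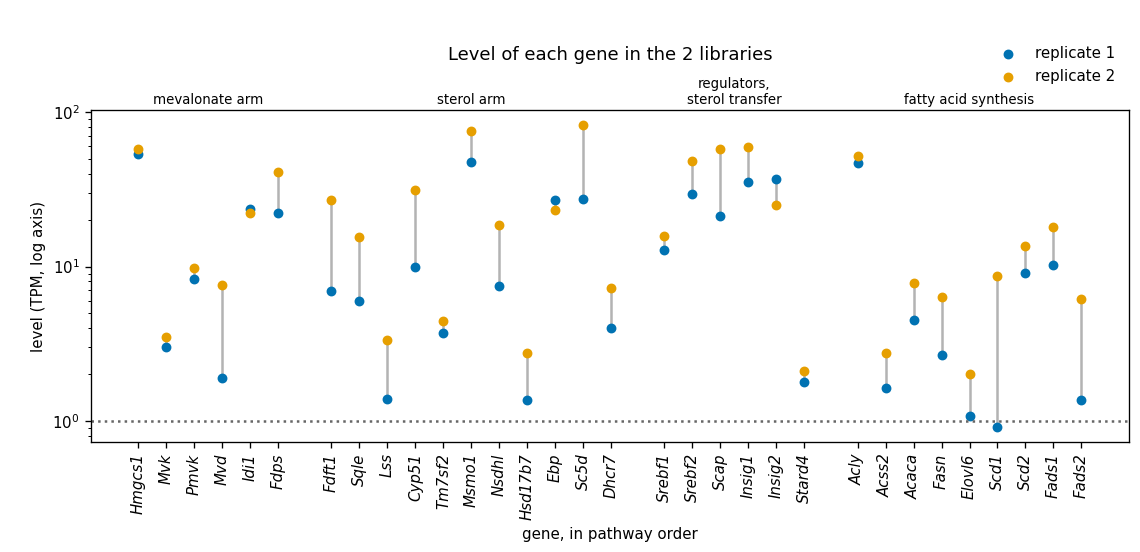
Level in TPM (log axis) of each of the 32 genes, in pathway order and grouped by role; blue points are replicate 1, orange points replicate 2, grey lines join the values of a gene, and the dotted line marks 1 TPM. Scd1 in replicate 1, at 0.92 TPM, is the lone point under the line, and most orange points lie above their blue partners.

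The mevalonate arm was high at its ends and low in its middle. Hmgcs1 (chromosome 13, 119690379 to 119708260, plus strand, mm10), the synthase that makes HMG-CoA, had 53.6 and 57.9 TPM in replicates 1 and 2, a mean of 55.8 ± 3.02 TPM (SD, n = 2). Mvk, mevalonate kinase, had 3.0 and 3.48 TPM, and Pmvk, which adds the next phosphate, had 8.25 and 9.72 TPM. Mvd (chromosome 8, 122433601 to 122443422, minus strand), the decarboxylase that yields the isoprenoid unit, had 1.89 TPM in replicate 1 against 7.58 TPM in replicate 2. The libraries thus differed for Mvd far more than for its neighbours in the pathway. Idi1, the isomerase of that unit, had 23.7 and 22.3 TPM, and Fdps, farnesyl diphosphate synthase, had 22.3 and 40.8 TPM. The kinases and the decarboxylase lay below Hmgcs1, Idi1 and Fdps in each library, and the median of the arm was 15.3 and 16 TPM in replicates 1 and 2.

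The sterol arm ran from a mean of 2.06 TPM to 61.4 TPM, the highest mean TPM of the set. Fdft1 (chromosome 14, 63145150 to 63179578, minus strand), squalene synthase, had 6.93 and 27.0 TPM in replicates 1 and 2, values that share sequence with a neighbour, as described below. Sqle, squalene epoxidase, had 5.97 and 15.5 TPM, and Lss, which closes the ring to lanosterol, had 1.39 and 3.32 TPM. Lss is the lowest step between squalene and the demethylases. Cyp51 (chromosome 5, 4081145 to 4104746, minus strand), the lanosterol demethylase, had 10 and 31.4 TPM, and the sterol reductase Tm7sf2 had 3.72 and 4.41 TPM. Msmo1 (chromosome 8, 64718139 to 64733792, minus strand), Nsdhl and Hsd17b7 act one after another to remove the remaining methyl groups. Msmo1, the monooxygenase, had 47.2 and 75.6 TPM, a mean of 61.4 ± 20.1 TPM (SD, n = 2), which is the 79.8th percentile of expressed protein-coding genes. Of its TPM, 27.2% and 30.2% lay in noncoding transcripts. In a second quantification of the libraries its mean was 54.8 TPM, under the 56.8 TPM of Sc5d, so its lead is not resolved. Nsdhl, the dehydrogenase, had 7.46 and 18.5 TPM, and Hsd17b7, the ketoreductase, had 1.37 and 2.74 TPM. Enzymes of this 1 sequence of reactions were therefore far apart in transcript level in both libraries. Ebp, a sterol isomerase, had 27.1 and 23.1 TPM. Sc5d (chromosome 9, 42251595 to 42264256, minus strand), the desaturase after it, had 27.3 and 81.9 TPM, and the reductase Dhcr7 had 3.99 and 7.24 TPM. Sc5d and Ebp were nearly equal in replicate 1 and far apart in replicate 2. The median of the arm was 6.93 and 18.5 TPM in replicates 1 and 2.

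Among fatty acid genes Acly had the highest mean, followed by Fads1 and Scd2. Acly (chromosome 11, 100476353 to 100528000, minus strand), which splits citrate into acetyl-CoA, had 47.0 and 52.0 TPM, a mean of 49.5 ± 3.49 TPM (SD, n = 2). Acss2, which makes acetyl-CoA from acetate, had 1.64 and 2.75 TPM. Acly thus exceeded the other source of acetyl-CoA in both libraries. Acaca, the carboxylase that makes malonyl-CoA, had 4.49 and 7.85 TPM, and Fasn, fatty acid synthase, had 2.66 and 6.31 TPM. Elovl6, which lengthens palmitate, had 1.07 and 2.0 TPM, the lowest mean of the 32 genes. The stearoyl-CoA desaturases place the double bond of oleate. Scd1 (chromosome 19, 44394455 to 44407879, minus strand) had 0.92 and 8.64 TPM, and Scd2 had 9.09 and 13.6 TPM. Fads1 and Fads2 are the desaturases of polyunsaturated chains. Fads1 had 10.3 and 18.1 TPM, and Fads2 (chromosome 19, 10062765 to 10101746, minus strand) had 1.37 and 6.17 TPM. In both libraries Scd2 was above Scd1 and Fads1 above Fads2, and the desaturases Scd1 and Fads2 differed most between the libraries.

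Summed over all their transcripts, the regulators lay above 10 TPM in both libraries, and Stard4 was near the bottom of the range. Srebf2, whose protein favours sterol genes, had 29.3 and 48.4 TPM, and Srebf1, whose protein favours fatty acid genes, had 12.8 and 15.8 TPM. Scap, the escort, had 21.1 and 57.9 TPM. Insig1 (chromosome 5, 28071363 to 28078662, plus strand), which is itself an SREBP target, had 35.2 and 59.1 TPM, and Insig2 had 37.0 and 25.1 TPM. Stard4, a protein that carries cholesterol between membranes, had 1.8 and 2.12 TPM. Of these 6 genes 5 reached 10 TPM in both libraries, Stard4 being the exception, and the median was 25.2 and 36.7 TPM in replicates 1 and 2. Srebf2 lay above Srebf1 in both libraries, while the order of Insig1 and Insig2 in TPM differed between them. Over transcripts of 1000 bases or more the 6 genes had a median of 18.9 and 18.3 TPM in replicates 1 and 2, against 7.46 and 18.3 TPM for the sterol enzymes, so in replicate 2 the medians were then alike. Over these longer transcripts Srebf1 had 8.25 and 6.91 TPM, under 10 TPM in both libraries.

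The listed sterol enzymes had a higher median level than the listed fatty acid enzymes in both libraries. The median of the 17 sterol enzymes was 7.46 and 18.5 TPM in replicates 1 and 2, and that of the 9 fatty acid enzymes was 2.66 and 7.85 TPM. The sterol median was 2.8-fold the fatty acid median in replicate 1 and 2.36-fold in replicate 2, a log2 ratio of fatty acid over sterol of -1.49 and -1.24, with a mean of -1.36 ± 0.18 (SD, n = 2). Of the sterol enzymes 7 of 17 reached 10 TPM in both libraries, and of the fatty acid enzymes 2 of 9, namely Acly and Fads1. With 1 value in each library, no test was run. Over transcripts of 1000 bases or more alone the mean log2 ratio was -1.97, and by the mean of log2(TPM + 1) it was -0.87, so the size of the difference rests on how the level is summed. The comparison also rests on which genes were listed. The 16 related genes of fatty acid elongation, activation and supply, held apart from the branch, had medians of 19.9 and 11.4 TPM in replicates 1 and 2. That is above the sterol median in replicate 1 and below it in replicate 2.

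Most genes of the pathway were higher in replicate 2 than in replicate 1. Ratios were taken from TMM-scaled expected counts, replicate 2 over replicate 1, over all 12226 genes with enough counts, and a gene was counted as different at 1.5-fold or more. All 32 genes passed the count filter. In replicate 2, 20 of the 32 were higher by that fold, against 16.7% of all genes tested, and in replicate 1, 0 of the 32 were, against 19.1%. At 2-fold 12 were higher in replicate 2, against 5.25%. The log2 ratio was above 0 for 30 of 32, against 49.3%, and its median was 0.88 (1.84-fold), against -0.01 over all genes tested. By role, 9 of 11 genes of the sterol arm, 7 of 9 fatty acid genes, 2 of 6 mevalonate arm genes and 2 of 6 regulators were higher in replicate 2, with median log2 ratios of 1.15, 0.88, 0.48 and 0.41. With 1 library on each side these ratios describe the libraries and carry no p-value. Counts of all genes differed between them beyond counting error, with a chi-square of 346 per gene.

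**Figure D2:**
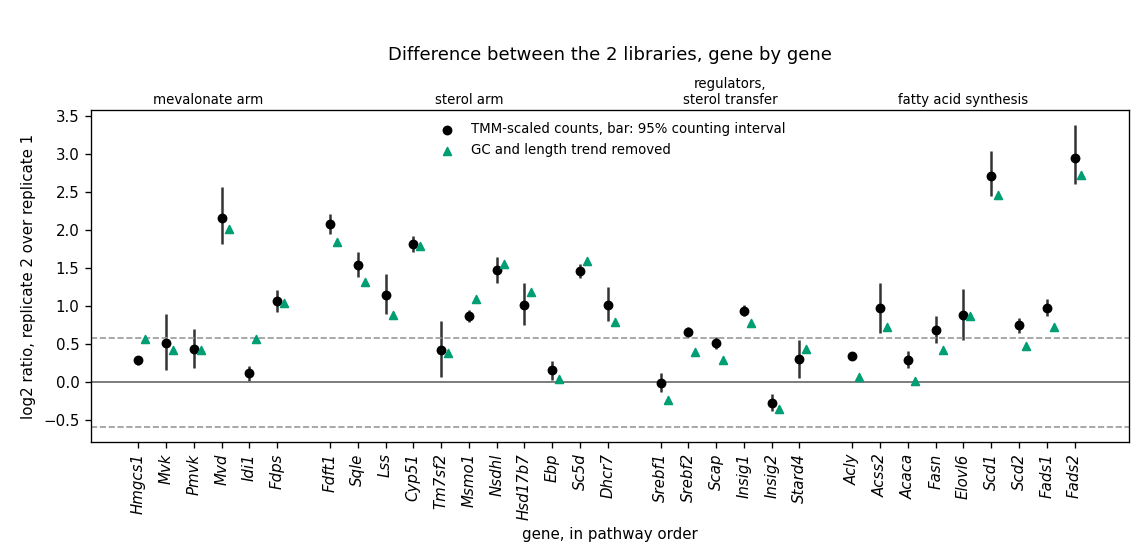
Log2 ratio of replicate 2 over replicate 1 for each gene, as TMM-scaled counts (black points, with bars for the 95% counting interval) and with the trend on GC content and length removed (green triangles); dashed lines mark 1.5-fold in either direction. The highest points are Fads2, Scd1, Mvd and Fdft1, and no gene lies under the lower dashed line.

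The widest differences were those of Fads2, Scd1, Mvd and Fdft1, of which Mvd dropped in rank with the quantification. Fads2 had 63 counts in replicate 1 and 737 in replicate 2, 7.75-fold after scaling, with a 95% Clopper-Pearson interval of 6.12 to 10.4 that covers counting error only. Scd1 had 105 and 1037 counts, 6.6-fold (5.47 to 8.26), and Mvd had 70 and 471 counts, 4.48-fold (3.54 to 5.95). In the second quantification the log2 ratio of Mvd was 1.49 in place of 2.16, below those of Fdft1 (2.11) and Cyp51 (1.82). For Fads2, Scd1 and Mvd replicate 1 rests on a low count. Fdft1 had 491 and 3074 counts, 4.23-fold (3.85 to 4.67), Cyp51 915 and 4759 counts, 3.52-fold (3.28 to 3.79), and Sqle 374 and 1606 counts, 2.9-fold (2.6 to 3.26). Fdft1, Sqle, Lss and Cyp51 act in that order from farnesyl diphosphate to the demethylated sterol, and all 4 were higher in replicate 2. Next came Nsdhl (2.78-fold), Sc5d (2.74-fold), Lss (2.22-fold), Fdps (2.1-fold), Dhcr7 (2.03-fold) and Hsd17b7 (2.02-fold). Fads1 (1.98-fold), Acss2 (1.95-fold), Insig1 (1.92-fold), Elovl6 (1.84-fold), Msmo1 (1.83-fold), Scd2 (1.68-fold), Fasn (1.62-fold) and Srebf2 (1.58-fold) were higher by less than 2-fold. The counting intervals of Elovl6 (1.48 to 2.35) and Fasn (1.43 to 1.83) reach under 1.5-fold. Srebf2 had 348 and 1489 counts in a retained-intron transcript of 1981 bases, and 2524 and 5190 in its main coding transcript. Fasn had 5.26% and 13.6% of its counts in retained-intron transcripts, in replicates 1 and 2. Both genes are counted as higher in replicate 2 with these transcripts included. Fasn had 188 and 758 counts in the coding transcript Fasn-201, and 160 and 0 in the coding transcript Fasn-205. With the same library scaling, coding transcripts alone lay under 1.5-fold for both genes. Their calls therefore rest on the retained-intron transcripts.

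A smaller group of genes lay under 1.5-fold in scaled counts, and it includes Acly and Hmgcs1, which act at the entry of the fatty acid and sterol branches. Acly had 4715 and 8793 counts, 1.26-fold (1.22 to 1.31), and Hmgcs1 had 3965 and 7147 counts, 1.22-fold (1.17 to 1.27). Acaca was at 1.23-fold (1.13 to 1.33), Stard4 at 1.23-fold, Ebp at 1.11-fold (1.02 to 1.21) and Idi1 at 1.08-fold (1.02 to 1.16). Mvk and Scap (1.43-fold each), Pmvk (1.36-fold) and Tm7sf2 (1.34-fold) lay just under the 1.5-fold line, and the counting intervals of Mvk, Pmvk, Tm7sf2 and Scap reach above it. Srebf1 had 869 and 1277 counts, 0.996-fold (0.913 to 1.09). Insig2 had 1221 and 1492 counts and was 1.21-fold higher in replicate 1, the largest difference in that direction among the 32.

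The GC content of the 32 genes had a median of 50.5%, against 49.8% over all genes tested. With the trend of the ratio on GC content and length across all genes removed, 17 of 32 genes were higher in replicate 2 by 1.5-fold, against 14.4%, and the median log2 ratio was 0.73. Srebf2, Fasn and Scd2 then fell under the line, with log2 ratios of 0.40, 0.42 and 0.48, and the count among sterol enzymes stayed at 11 of 17. Other genes moved up, Hmgcs1 from 0.29 to 0.57, Idi1 from 0.12 to 0.57 and Msmo1 from 0.87 to 1.10, so Hmgcs1 and Idi1 then lay just under the line. Scaling by total counts shifted the median of all genes by -0.19 on the log2 scale, and 17 of 32 genes were then higher in replicate 2, against 10.5%. Under that scaling 28 of 32 log2 ratios were above 0, and those of Idi1 (-0.06) and Ebp (-0.02) turned below 0. Among marker lists, 4 of the 5 neutrophil genes with enough counts were higher in replicate 1, against 19.1% of all genes, with a median log2 ratio of -4.25. Their summed level was 516 and 26.9 TPM in replicates 1 and 2, with Ly6g at 0 in both. Of genes with enough counts, 2 of 3 dendritic cell, 1 of 3 fibroblast and 1 of 1 B cell markers were also higher in replicate 1. In replicate 2, 2 of 8 macrophage markers and 1 of 1 T cell markers were higher, against 16.7% of all genes. The part of these marker lists in the result was not tested.

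Related pairs of genes shifted their balance between the libraries. Scd1 made up 8.18% of the summed counts of Scd1 and Scd2 in replicate 1 and 26.2% in replicate 2. Fads2 made up 7.22% and 23.8% of the counts of Fads1 and Fads2. In both pairs the minor member took a larger share in replicate 2. Insig1 made up 63.1% and 79.9% of the counts of Insig1 and Insig2, while Srebf1 made up 23.2% and 16% of those of Srebf1 and Srebf2. In TPM the shares of Insig1 were 48.8% and 70.2%, since a short transcript of Insig2 adds to its TPM. These shares compare the genes within a library and have no test with 1 library on each side.

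Short transcripts carried much of the TPM of several genes on few counts. In replicate 1, 5 genes had 20% or more of their TPM in transcripts under 1000 bases, and in replicate 2, 8 genes did. The clearest case was Scap, for which the retained-intron transcript Scap-202 of 358 bases had 0 counts in replicate 1 and 170 in replicate 2, that is 0% and 58.9% of the TPM of the gene. By TPM Scap was thus 2.74-fold higher in replicate 2, and by counts 1.43-fold. Over transcripts of 1000 bases or more it had 18.2 and 22.4 TPM. Fasn had 41.5% and 70.2% of its TPM in noncoding transcripts, which left 1.56 and 1.88 TPM over longer transcripts. Srebf1 had 35.5% and 56.4% in noncoding transcripts, and over longer transcripts it had 8.25 and 6.91 TPM in replicates 1 and 2. The direction of the TPM difference of Srebf1 and of most of that of Fasn therefore rests on short noncoding transcripts. In Acaca the 431-base transcript Acaca-206 took 5.94% and 33.0% of TPM from 1 and 20 counts. In Scd1 and Fads2 short transcripts took 37.3% of TPM in replicate 2 and 37.5% in replicate 1, from 1.46% and 2.03% of the counts. Signs of the TPM and count differences disagreed for Idi1, Ebp and Srebf1. The leading transcript by TPM was the same in both libraries for 28 of 32 genes and differed for Mvk, Scap, Acly and Elovl6. For Acly the coding transcripts Acly-203 and Acly-201 exchanged the lead, with 50.3% and 36.4% against 38.6% and 58.6% of TPM in replicates 1 and 2.

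**Figure D3:**
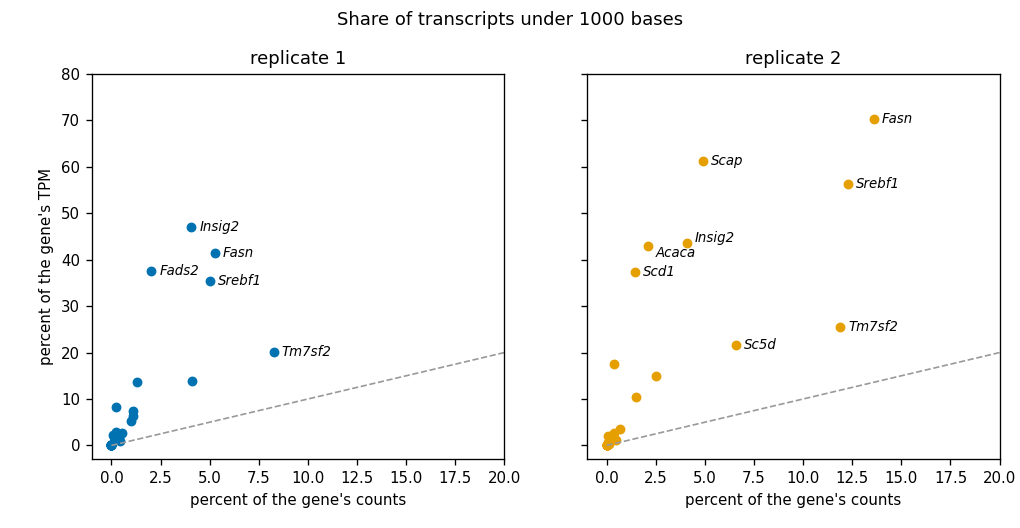
Percent of the TPM of each gene (vertical) against percent of its counts (horizontal) in transcripts under 1000 bases, in replicate 1 (left, blue) and replicate 2 (right, orange); the dashed line marks equal shares and genes at 20% of TPM or more are named. Fasn, Scap and Srebf1 stand highest in replicate 2, at 70.2%, 61.2% and 56.4% of TPM.

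Some of these genes share sequence with others, which bears on how reads were divided. Taking the transcript with the most counts of each gene, 15 shared no 31-base word with another gene, and 4 shared 20% or more of their words. Fdft1 shared 47.5% of its words with other genes. It shared 26.2% of its words with Ctsb on the opposite strand, a gene that overlaps it by 774 bases (chromosome 14, 63145150 to 63145923). Ctsb, a lysosomal protease gene, had 574635 and 1208218 counts and was 1.42-fold higher in replicate 2. The counts of Fdft1 equal 0.0854% and 0.254% of those of Ctsb. Whether the counting used strand is not given in the sources used here, so reads of Fdft1 and Ctsb in the overlap may not have been told apart, and their part in the 4.23-fold difference was not tested. Without Fdft1, 19 of the remaining genes were higher in replicate 2 and the median log2 ratio was 0.87. Acaca shared 59.9% of its words with the pseudogene Gm5182 (11 and 6 counts), Idi1 shared 32%, most of it with the pseudogene Gm13502 (25 and 69 counts), and Fdps shared 85.7%, most of it with Gm43738 (0 and 2 counts). Values of these 4 genes depend on how shared reads were divided, by an amount that the percent of shared words does not measure. Scd1 shared 8.3% and Scd2 6.86% of their words, most of them with Scd3, which had 0 counts in both libraries.

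Lists of related lipid genes had smaller median differences between the libraries. Their medians of the log2 ratio ran from -0.24 to 0.35, against 0.88 for the 32 synthesis genes and -0.01 for all genes tested. The counts below stand against the 16.7% of all genes that were higher in replicate 2 and the 19.1% higher in replicate 1, or 14.4% and 15.2% with the GC and length trend removed. Among 10 genes of liver X receptor signalling and sterol efflux, 3 were higher in replicate 2, and the median was 0.35. With the GC and length trend removed, 3 were higher in replicate 2 and 2 in replicate 1, and the median was 0.10. Ch25h, which makes an oxysterol that holds SREBP processing back, had 14.1 and 30.7 TPM in replicates 1 and 2, with a log2 ratio of counts of 1.31. The sterol hydroxylase Cyp27a1 (0.97) and the phospholipid acyltransferase Lpcat3 (0.80) were the other two. The apolipoprotein gene Apoe had 10800 and 8120 TPM, the sterol transporter Abcg1 105 and 122 TPM, and the nuclear receptor Rxra 5.8 and 4.36 TPM.

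Genes that process SREBPs or turn over INSIG proteins were nearly even, with a median log2 ratio of 0.09. Of 8, 1 was higher in replicate 2, Faf2, at 25.6 and 37.9 TPM and a log2 ratio of 0.60. With the GC and length trend removed that ratio was 0.38, and 0 of the 8 were higher in either library. Vcp, the segregase that extracts proteins from the membrane, had 146 and 107 TPM, the highest of the list. Mbtps1, the protease that makes the initial cut in SREBPs, was the lowest at 10.1 and 10.4 TPM. Its log2 ratio was 0.21, and that of Mbtps2, the protease of the next cut, was -0.33. Transcript levels do not measure the processing itself.

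Of 16 genes of fatty acid elongation, activation and supply, 14 had enough counts, 5 were higher in replicate 2 and 1 in replicate 1, with a median of 0.27. Tecr, the last reductase of the elongation cycle, had 53.2 and 140.0 TPM and a log2 ratio of 1.62. Hacd2 (0.89), Elovl5 (0.80), Elovl1 (0.77) and Acsl3 (0.75) followed, and Hacd3, a dehydratase of the same cycle, was the gene higher in replicate 1 (-0.79). Hsd17b12 was highest in the list, with 140.0 and 117 TPM, ahead of Elovl1 with 85.0 and 130.0 TPM. Mlxipl, a glucose-responsive lipogenic factor, was lowest with 0.01 and 0.02 TPM. Genes of fatty acid oxidation had a median of -0.13, with 0 of 10 higher in replicate 2 and 1 higher in replicate 1, Hadhb (-0.99), both under the shares over all genes. With the trend removed, 2 were higher in replicate 1. Acadl had 92.1 and 83.1 TPM, Hadha 75.4 and 62.1 TPM and Cpt2 10.2 and 12.5 TPM.

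Among 9 genes of the side branches that use mevalonate products for other ends, 7 lay under 1.5-fold. The median was -0.24, with 0 higher in replicate 2 and 2 higher in replicate 1, near the share over all genes, or 1 with the GC and length trend removed. The 2 genes were Pggt1b (-1.04), a prenyltransferase subunit, and Nus1 (-0.74), which acts in dolichol synthesis. Nus1 had 50.7 and 27.0 TPM, the prenyltransferase subunit Fnta 26.8 and 16.8 TPM, and its partner Fntb 1.95 and 1.79 TPM. Among 10 genes of sterol uptake, storage and transport the median was 0.27, with 1 gene, Scarb1 (0.98), higher in replicate 2 and 1, Osbpl8 (-0.59), higher in replicate 1. With the trend removed 2 were higher in replicate 2, Scarb1 (0.76) and Nceh1 (0.67), and 0 in replicate 1, with Osbpl8 at -0.16. Npc2 had 762 and 699 TPM, Lipa 411 and 428 TPM and Star 0.18 and 0.17 TPM. Among 9 genes of triglyceride and phospholipid assembly the median was 0.13, with Pnpla2 (0.99) higher in replicate 2. With the trend removed 1 was higher in replicate 2 and 2 in replicate 1, Gpam (-0.73) and Agpat3 (-0.63). Plin2 had 795 and 566 TPM, Pcyt1a 41.6 and 56.2 TPM and Lpin1 0.17 and 0.15 TPM.

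**Figure D4:**
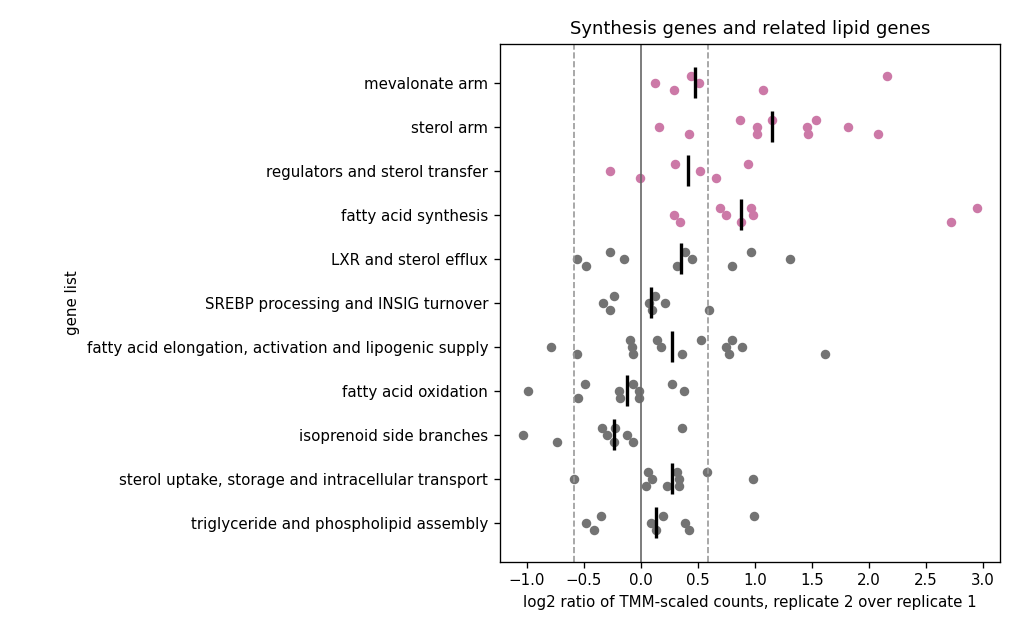
Difference between the libraries, as the log2 ratio of scaled counts with replicate 1 as the base, for each gene of the 4 synthesis groups (pink) and of 7 related lists (grey), with a black bar for the median of each list and dashed lines at 1.5-fold. The median bars of the sterol arm (1.15) and fatty acid synthesis (0.88) lie beyond the upper dashed line. Those of the mevalonate arm (0.48) and of the regulators and sterol transfer (0.41) lie under it, and those of the related lists lie between -0.24 and 0.35.

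The label of the cells was checked against marker genes. All 8 macrophage markers reached 10 TPM in both libraries, led by Lyz2 (10500 and 13600 TPM) and Cd68 (2500 and 5400 TPM). All 7 adipocyte markers, among them Adipoq and Plin1, had 0 counts in both libraries. S100a9 had 316 and 10.2 TPM and S100a8 127 and 5.63 TPM, the highest of the neutrophil list. Col1a1 and Col1a2, highest of the fibroblast list, stayed under 1 TPM in both libraries. Cd4 was the T cell marker above 1 TPM (44.8 and 79.8 TPM), with Cd8a at 0.12 and 0 TPM and Cd3g and Trac at 0. Cd79b, highest of the B cell list, had 1.11 and 0.49 TPM. Ccr7 and Siglech led the dendritic cell list, with 9.85 and 2.92 TPM and with 1.49 and 0.22 TPM.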

How the data were processed

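Polyadenylated RNA was measured in 2 libraries of 1 group. The authors deposited gene and transcript tables on mm10 with GENCODE M21, per the file headers and accompanying notes. Which tools and versions made them is not given in the sources used here, and column layouts are those of RSEM (first tables) and kallisto (second transcript table). Deposited expected counts are estimated reads per gene, with shared reads divided and no normalization. In the deposited TPM, each count is divided by transcript length and set to a fixed total per library. Deposited FPKM values are scaled to length and fragment number, and served in 1 alternative. The deposited percent column gives the share of a gene's TPM in each transcript. In 4 genes in replicate 1 and 1 in replicate 2 the TPM lay outside the interval deposited beside it.

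Genes were matched by symbol, and all 32 matched. Expected counts were rounded, filtered with filterByExpr and scaled by TMM in edgeR 4.0.16 (R 4.3.3), and log2 ratios used a prior count of 2. No count model was tested, since 1 library a side leaves no residual degrees of freedom. The GC and length trend was fitted with natural splines (5 degrees of freedom) over 12217 genes. Alternatives included DESeq2 1.42.0 size factors, total counts, other priors and filters, log2(TPM + 1) and the second quantification. The ratio was tested on simulated data. The members and lists were chosen with earlier results of these data known. Named genes are all 32 members, the highest 2 and the lowest by mean TPM of each related list with any past 1.5-fold, and the highest 2 of each marker list, of which some are not reported here; Ly6g, Cd3g, Trac and the sequence-sharing genes were named after their values were seen. Protein identity between related genes, which had been planned, was not computed. Separate cultures are not stated, so the spread between libraries may be technical. Intervals cover counting error only.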

Additional observations from a re-analysis of the deposited data

How the results depend on the processing

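The direction of each summary value held under every alternative run, none of which moved related genes into a branch. The log2 ratio of fatty acid over sterol medians was -1.36 as the mean of the libraries, -0.87 by the mean of log2(TPM + 1), -1.01 by the mean of log2(TPM + 0.1) and -1.97 over transcripts of 1000 bases or more, the last chosen after seeing the data, and it ran from -1.49 to -1.24 with a single library left in. The number of genes at 1 TPM was 31 to 32 with a library left out, and 14 at 10 TPM. It was 30 in the second quantification, 30 over transcripts of 1000 bases or more, and 27 with FPKM in place of TPM. The number higher in replicate 2 was 20, was 17 to 21 under other scalings, filters and quantifications (backgrounds of 10.5% to 19.9% of genes), and was 12 at 2-fold. The median log2 ratio of the 32 genes, 0.88, was 0.70 with total counts, 0.70 by log2(TPM + 1) and 0.73 with the GC and length trend removed. That of sterol enzymes was 0.72 by log2(TPM + 1), against 1.02, and that of regulators was 0.23 with total counts and 0.50 by log2(TPM + 1), against 0.41. The total-count values follow from the shift of all genes by -0.19, and for the others the cause was not tested. Without the 4 genes that share 20% or more of their words, a choice made after seeing the data, 18 genes were higher in replicate 2. Across single genes, 161 levels stayed within their SD and 31 moved, and 155 ratios stayed and 69 moved. The 161 include levels with a library left out, which could not move. With 2 libraries either value always lies within the SD of their mean, so those checks say nothing about stability. Leaving out a library leaves no ratio between libraries. No paired analysis was possible because there is 1 group. Low counts limit Fads2, Mvd, Mvk, Tm7sf2, Scd1, Acss2 and Elovl6, each at 105 counts or fewer in replicate 1.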
